A study of Mus musculus with 108 samples.

Results

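Of the 49585 genes in the count table, 35 make up the DNA double-strand break and crosslink repair genes described here. They were listed by name, with earlier results of these data known, and all 35 were found. By role they fall into 11 genes of damage sensing and signalling, 11 of homologous recombination, 6 of the Fanconi anaemia pathway, 5 of end joining and 2 of single-strand break repair. They were followed through 108 RNA-seq libraries of sorted myeloid cells from a mouse model of lung-to-brain metastasis, in 28 groups. All mice were Balb/C athymic nude mice (CAnN.Cg-Foxn1nu/Crl), so every group lacks a normal thymus, and the host has few mature T cells.

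From tumour-bearing brains, 4 populations were sorted: microglia, which are the resident macrophages of the brain, monocyte-derived macrophages, monocytes and granulocytes. Unirradiated libraries came from brains with a small or a large tumour. There were 5 of each stage for microglia and for macrophages, and 4 small and 5 large for monocytes and for granulocytes. Irradiated libraries carry no tumour stage. Their radiotherapy was 5 fractions of 2 Gy (5x2), titled day 3, 5 or 10 with 4, 4 and 3 libraries per population, or 1 fraction of 10 Gy (1x10), titled day 3 with 3 libraries. The event from which days were counted is not given in the labels. Tumour-free groups were microglia (4 libraries), blood monocytes (4) and 2 further sets of 3 tumour-free microglia libraries. The titles of those 6 carry 5x2 and day 3 or 5, while their radiotherapy field says none. They are called tumour-free microglia titled 5x2 below. Nothing in the labels says that replicates are different mice, and all p-values here rest on the spread among libraries, part of which may be technical.

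Broken DNA ends are bound by the MRE11-RAD50-NBS1 complex (Mre11a, Rad50, Nbn), which activates the kinase ATM. ATM and its relative ATR signal through CHK2 and CHK1 to p53 and the cell cycle. In end joining, the Ku proteins (Xrcc5, Xrcc6) and the kinase DNA-PKcs (Prkdc) hold the ends for ligation by LIG4 and XRCC4, at any stage of the cycle. Homologous recombination copies an intact sister chromatid, with BRCA1, BARD1, PALB2 and BRCA2, and therefore acts mainly after replication. The Fanconi anaemia pathway (Fanca to Brip1) removes crosslinks between the DNA strands at stalled replication forks. PARP1 and XRCC1 serve mainly single-strand breaks. Genes of homologous recombination and of the Fanconi pathway are known to be expressed mostly in cycling cells. Mature granulocytes and monocytes no longer divide, while microglia and macrophages can.

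The results turn on a group of genes whose levels followed those of mitosis genes over the groups and on 2 genes, Parp1 and Xrcc5, that differed between populations. The 150 bases before the start of the RefSeq gene (GRCm38.p6) are shown for 4 of the first kind and for both of the second. Capitals mark CCAAT on either strand (ATTGG is CCAAT on the other strand), a motif common in promoters of cell cycle genes. Each is written from 5′ to 3′ on the gene's own strand. They lie at chr6:126939588-126939737 (minus strand), chr11:86201194-86201343 (minus), chr4:116123691-116123840 (minus), chr11:101551956-101552105 (minus), chr1:180568741-180568890 (plus) and chr1:72307271-72307420 (plus).
Rad51ap1: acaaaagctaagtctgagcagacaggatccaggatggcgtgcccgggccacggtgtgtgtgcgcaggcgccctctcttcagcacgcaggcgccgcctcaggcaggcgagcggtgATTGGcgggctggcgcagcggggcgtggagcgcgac
Brip1: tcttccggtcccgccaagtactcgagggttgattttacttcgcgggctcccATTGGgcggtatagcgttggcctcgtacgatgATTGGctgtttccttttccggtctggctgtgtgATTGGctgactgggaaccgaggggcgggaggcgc
Rad54l: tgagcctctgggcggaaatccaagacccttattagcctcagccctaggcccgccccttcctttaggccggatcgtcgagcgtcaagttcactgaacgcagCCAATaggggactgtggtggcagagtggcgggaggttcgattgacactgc
Brca1: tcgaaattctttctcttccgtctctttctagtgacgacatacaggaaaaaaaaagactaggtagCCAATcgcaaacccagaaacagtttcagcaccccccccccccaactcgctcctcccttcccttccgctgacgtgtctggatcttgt
Parp1: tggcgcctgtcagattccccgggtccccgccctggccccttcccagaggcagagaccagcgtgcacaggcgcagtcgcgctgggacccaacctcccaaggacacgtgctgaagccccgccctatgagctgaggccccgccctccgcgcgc
Xrcc5: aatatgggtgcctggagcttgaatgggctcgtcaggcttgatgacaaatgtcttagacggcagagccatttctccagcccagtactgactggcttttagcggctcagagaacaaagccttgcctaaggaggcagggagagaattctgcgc

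Promoters of 28 of the 35 genes are in the RefSeq table used. CCAAT was present in 11 of the 28 windows, against 24.5% of the 32851 windows in the table. Of the 6 genes that followed the mitosis genes most closely (below), 5 are in the table and Exo1 is not. CCAAT was present in 4 of those 5 and in 7 of the other 23. The sequences shown above were limited to starts within 50 bases of the GENCODE gene start. Fanci, the 1 of the 5 without CCAAT, lay 409 bases away and is not shown. The E2F forms searched (TTTCCCGC, TTTCGCGC, TTTGCCGC and TTTGGCGC, both strands) were present in 2 of 28, Mdc1 and Xrcc6, against 1.24% of all windows. The CHR element TTTGAA, on either strand, was present in 0 of 28 against 9.07% of all windows. These matches describe letters in a short window and no binding was measured. For Xrcc6 and Fancc the RefSeq start used lay 28534 and 65533 bases from the GENCODE gene start.

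Total counts ranged from 985423 to 18642747 per library, with a median of 11362593.5. In 12 libraries the total was under 3000000, more than 30000 genes were detected or more than 1% of abundant genes were at 0. They are called libraries of doubtful quality, include 2 of 4 tumour-free microglia and 3 of 4 blood monocyte libraries, and calls of named members that were lost without them are given as such. Summed markers were highest in the labelled population for microglia, monocytes and granulocytes, but not for macrophages. The 6 granulocyte markers summed to 14713–35043 CPM (reads of a gene scaled to library size) in granulocytes and had medians of at most 946 elsewhere. The 6 microglia markers had medians of 8848 CPM in microglia of tumour-bearing brains and 10063 in tumour-free ones, against 2207 in macrophages and 1141 in tumour monocytes. Monocyte markers had a median of 7196 CPM in tumour monocytes and 2346 in macrophages. The 5 markers of monocyte-derived macrophages had a median of 1667 CPM in macrophages and a higher one, 3590, in tumour monocytes. Of the 35 genes, 18 overlap a gene on the opposite strand, among them Mre11a, Rad50, Nbn, Trp53bp1, Rad54l, Rad51ap1, Brip1, Fanci and Xrcc6. Whether counting used the strand is not known here, so such genes may hold reads of their partners. In sorted bulk samples, fewer cells of a type and less RNA per cell cannot be told apart.

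Averaged over the 35 genes, repair gene RNA was highest in microglia of tumour-bearing brains and lowest in granulocytes. The mean log2 CPM was 3.57 ± 0.30 (SD, n = 24) in those microglia, 2.89 ± 0.35 (n = 24) in macrophages, 2.23 ± 0.33 (n = 23) in tumour monocytes and 1.14 ± 0.94 (n = 23) in granulocytes. Tumour-free microglia stood at 3.02 ± 0.29 (n = 4) and those titled 5x2 at 2.75 ± 0.19 (n = 6). Microglia of tumour-bearing brains and macrophages were separated by more than 1 SD, as were macrophages and tumour monocytes, while tumour-free microglia and macrophages differed by less than their spread. The granulocyte SD was widened by 2 libraries, replicate 1 of the small stage at -2.07 and replicate 1 of 5x2 day 5 at -0.80. Blood monocytes stood at 3.28 ± 0.89 (n = 4), and the 1 library not of doubtful quality among them at 2.13, below the other 3.

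**Figure D1:**
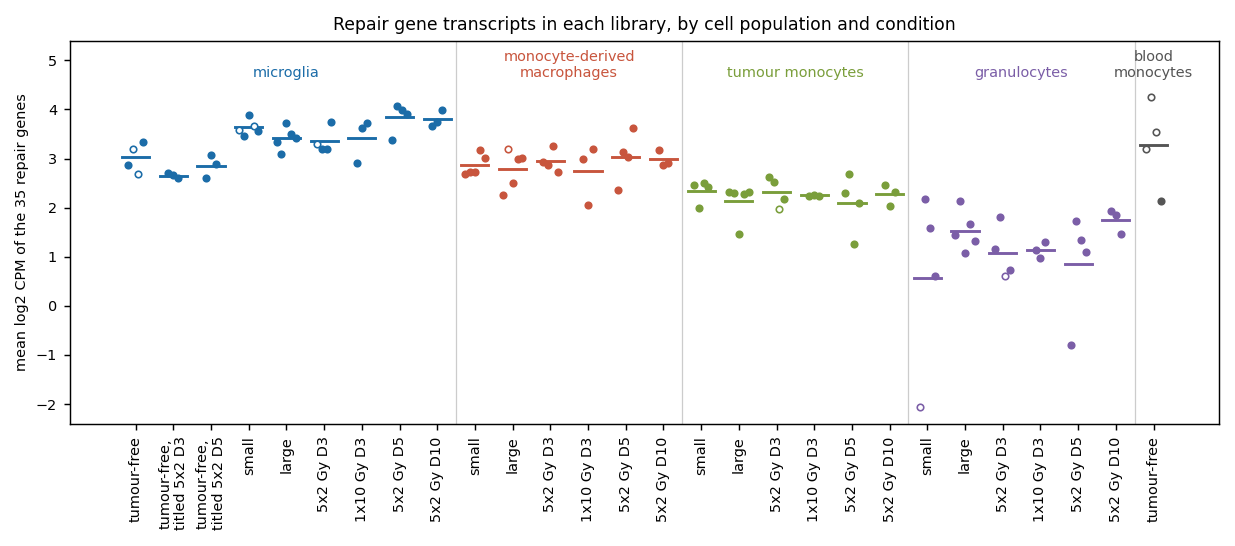
Mean log2 CPM of the 35 repair genes (y axis) in each of the 108 libraries, by group (x axis). Points are libraries, open points are the 12 of doubtful quality, and lines are group means. Microglia groups of tumour-bearing brains have means from 3.36 to 3.84, and the granulocyte points lie lowest and most spread.

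The order over populations differed for 1 role. For homologous recombination the mean log2 CPM was 2.66 in microglia of tumour-bearing brains, 1.86 in macrophages, 0.858 in tumour monocytes and 0.207 in granulocytes. The Fanconi anaemia genes followed the same order at 2.65, 1.54, 0.987 and -0.0928. Sensing and signalling genes were at 4.42, 4.01, 3.42 and 2.37, and end joining genes at 3.91, 3.03, 2.51 and 1.63. The 2 genes of single-strand break repair were at 5.86, 6.12, 6.26 and 2.02, with tumour monocytes highest. The SD of the first 3 were 0.267, 0.245 and 0.313, so neighbours in that order differed by about 1 SD or less. Set per kilobase of exon, which allows genes to be compared, the highest levels in these microglia were Trp53 at 17.6 CPM per kb, the p53 transcription factor itself, and Parp1 at 17.5. Chek2 at 10.8 and Nbn at 10.4 came next. The Ku genes Xrcc5 and Xrcc6 were at 6.53 and 6.5 CPM per kb, and Bard1, the partner of BRCA1, was lowest at 0.208.

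Within the end-binding complex the 3 subunits did not share a pattern. Mre11a, the nuclease, was nearly level at 24.4 ± 2.46 CPM in microglia of tumour-bearing brains, 23.1 ± 5.44 in macrophages, 21.5 ± 6.23 in tumour monocytes and 24.1 ± 10.2 in granulocytes. Rad50, its ATPase partner, stood at 34.6, 33.7, 19.5 and 4.80 CPM in the same order, and Nbn, the subunit that recruits ATM, at 26.4, 28.6, 21.3 and 4.82. Granulocytes thus had Mre11a at the level of the other populations and the lowest levels of Rad50 and Nbn (tested below).

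Xrcc5 (ENSMUSG00000026187, chr1:72307421-72394952, GRCm38), which encodes the Ku80 subunit, was far higher in microglia than in the other tumour populations. It had 16.7 ± 5.42 CPM in microglia of tumour-bearing brains (n = 24; lowest 7.88, median 16.9, highest 30.7). In macrophages it had 3.07 ± 2.69 CPM (n = 24; lowest 0, median 2.63, highest 11.5) and in tumour monocytes 1.09 ± 1.5 (n = 23; lowest 0, median 0.651, highest 7.24). The microglia and tumour monocyte ranges did not overlap. Its partner Xrcc6, which encodes Ku70, had 29.1, 25.9, 17.2 and 4.70 CPM in microglia, macrophages, tumour monocytes and granulocytes. The order of Parp1 was the reverse of the whole set's among the first 3: 92.4 ± 19.9, 141 ± 30.7 and 180 ± 40.7 CPM, then 3.70 ± 4.99 in granulocytes.

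**Figure D2:**
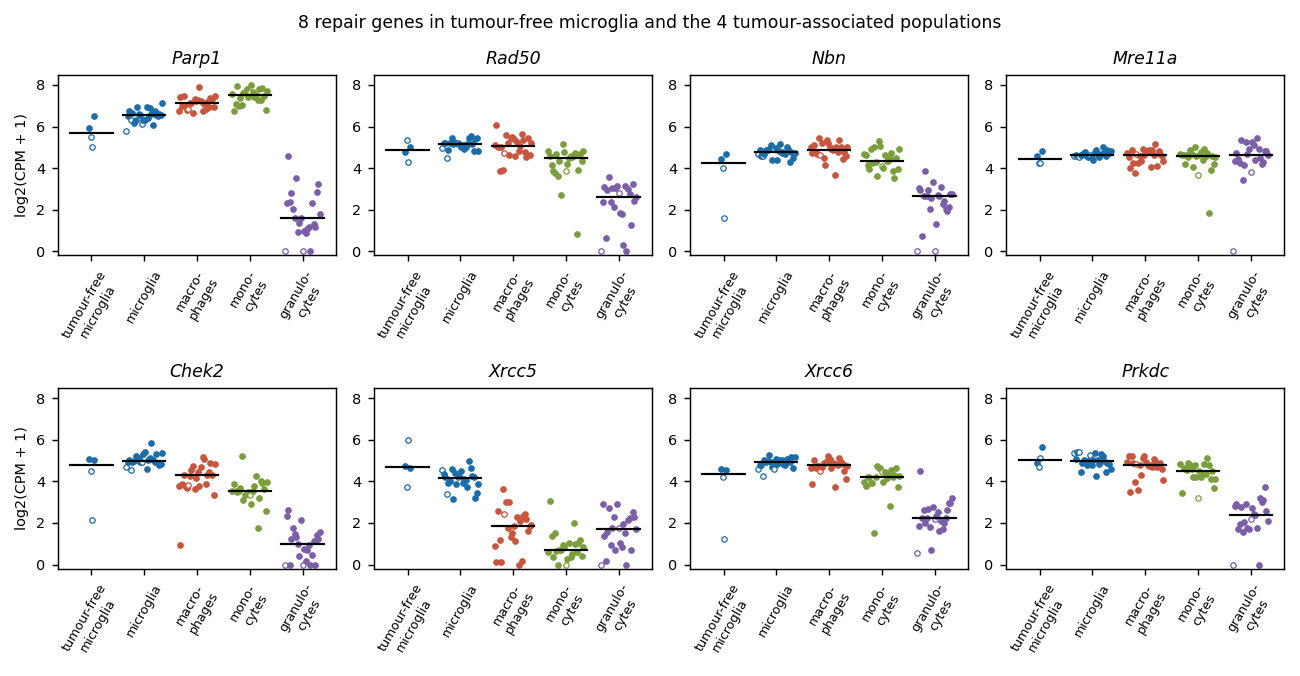
Log2(CPM + 1) (y axis) of Parp1, Rad50, Nbn, Mre11a, Chek2, Xrcc5, Xrcc6 and Prkdc, 1 panel each, in tumour-free microglia and the 4 tumour-associated populations (x axis). Points are libraries, open points those of doubtful quality, and black lines medians. Parp1 is lowest in granulocytes, Mre11a is level across populations, and Xrcc5 is higher in the microglia columns than in the other 3.

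Granulocytes were compared with tumour monocytes, both short-lived cells of the blood lineage. The labels do not say which libraries share a brain. Parp1 (ENSMUSG00000026496, chr1:180568924-180601254), the poly(ADP-ribose) polymerase that marks breaks, had by far the largest difference. In 9 unirradiated monocyte libraries its lowest, median and highest values were 106, 163 and 242 CPM, and in 9 granulocyte libraries 0, 4.02 and 22.8 CPM. In the 14 irradiated libraries of each they were 110, 190 and 252 CPM against 0, 1.37 and 8.36 CPM. The ranges did not overlap in either set. The log2 fold change was -4.61 ± 0.59 (SE; adjusted p = 1.52e-06, edgeR's quasi-likelihood test with Benjamini-Hochberg adjustment over all genes) without irradiation and -6.37 ± 0.33 (adjusted p = 7.18e-15) with it.

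Genes with an adjusted p under 0.05 are called here. Of 33 members tested without irradiation, 2 were higher and 11 lower in granulocytes, or 39.4% called, against 49.9% of all 14270 genes. With irradiation 5 were higher and 13 lower of 32 tested (56.2%), against 72.5% of all genes. The members were thus called less often than genes at large in both sets, and as a set they give no result on how often these cells differ. Lower calls alone were 33.3% of members against 26.9% of genes without irradiation and 40.6% against 37.6% with it. Bard1 and Rad51ap1 without irradiation, and Bard1, Exo1 and Fanci with it, were too low to test. The same direction held in both sets for 11 of the 13 and 18 called. Without irradiation, leaving out replicate 4 of the large-stage monocytes left 8 calls.

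Several genes of damage signalling were lower in granulocytes. Chek2, which encodes the checkpoint kinase CHK2, had lowest, median and highest values of 7.53, 10.8 and 36.3 CPM in unirradiated monocytes and 0, 1.47 and 5.15 in granulocytes. These ranges did not overlap, and the difference was -2.52 ± 0.63 (adjusted p = 0.00204), or -3.47 ± 0.48 (adjusted p = 5.56e-07) in irradiated libraries. Nbn had 11.4, 18.3 and 31.6 CPM in unirradiated monocytes against 0, 5.24 and 13.4 in granulocytes, which overlapped (-1.82 ± 0.52, adjusted p = 0.00586). In irradiated libraries its values were 10.4, 20.4 and 38.7 against 0, 4.62 and 9.19 CPM with no overlap (-1.99 ± 0.30, adjusted p = 1.61e-06).

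Rad50 was lower in granulocytes by -1.71 ± 0.52 (adjusted p = 0.00902) and -2.0 ± 0.48 (adjusted p = 0.000586), with ranges that overlapped in both sets. Mre11a was not called without irradiation (0.05), with 15.5, 23.7 and 27.9 CPM in monocytes and 0, 18.9 and 40.4 in granulocytes. With irradiation it was higher by 0.54 ± 0.24 (adjusted p = 0.0472), at 2.59, 22.8 and 31.3 CPM in monocytes and 13, 26 and 42.4 in granulocytes. That call was kept in 13 of 33 alternative analyses. Trp53 was lower by -1.31 (kept in 14 of 23 alternative analyses) and -1.49 ± 0.23 (adjusted p = 3.39e-06). Chek1, which encodes the replication checkpoint kinase CHK1, went the other way, at 2.35 ± 2.16 against 0.528 ± 0.55 CPM without irradiation (2.46 ± 0.83, adjusted p = 0.0173) and with a difference of 2.56 (adjusted p = 0.00099) with irradiation.

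In end joining, Prkdc, the kinase subunit, had 9.83, 23.0 and 28.5 CPM in unirradiated monocytes and 0, 3.13 and 6.64 in granulocytes, without overlap (-2.27 ± 0.48, adjusted p = 0.000456). It was lower by -1.90 with irradiation. Xrcc6 was lower by -1.32 (kept in 10 of 23) and by -1.94 ± 0.27 (adjusted p = 5.01e-07). Xrcc5, already near 0 in monocytes, was higher in irradiated granulocytes by 1.83 ± 0.52 (adjusted p = 0.00298), and Lig4, the ligase, by 1.2. Xrcc1, the scaffold of single-strand break repair, was lower by -1.22 (kept in 12 of 23) and -1.54, and Fancc, a Fanconi core subunit, by -2.94 (adjusted p = 0.00205) and -2.72. Rbbp8, which encodes the resection factor CtIP, was lower by -1.68 and -0.89. Brip1 (-2.14) and Brca1 (2.20, kept in 14 of 21) were called without irradiation and not with it, and Palb2 (-2.09), Xrcc2 (-1.81), Atm (-1.58) and Brca2 (1.08) with it and not without it. Whether irradiation bears on these was not tested.

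**Figure D3:**
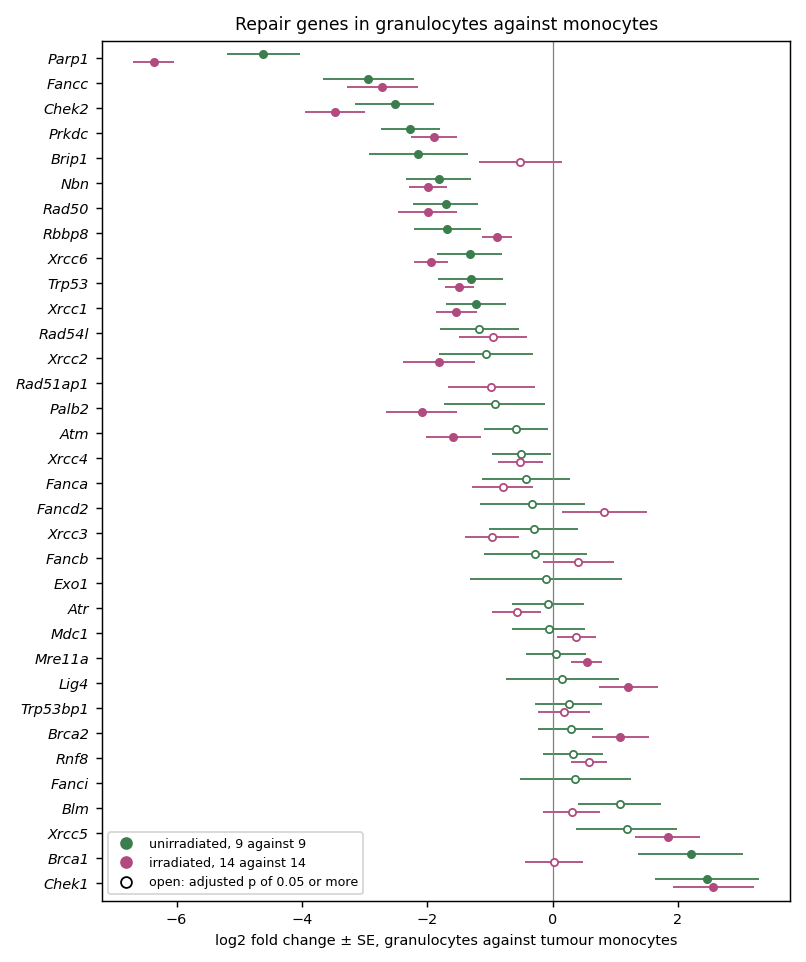
Log2 fold change of granulocytes over monocytes (x axis) for each repair gene tested (y axis), without and with irradiation. Bars are the SE either way, and open symbols have an adjusted p of 0.05 or more. Parp1 lies farthest left in both sets, at -4.61 and -6.37.

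Among all genes, 3284 were higher and 3834 lower of 14270 without irradiation, and 5235 and 5643 of 15006 with it. The other repair genes are a list of 53 genes of mismatch, excision and further damage responses. Of these, 3 were higher and 16 lower of 47 tested without irradiation, and 7 and 26 of 48 with it. Babam1, a subunit of the BRCA1-A complex, was lower by -2.63 and -2.57. Of the 23 p53 targets, 8 were higher and 0 lower without irradiation, and 11 and 5 with it. Mitosis genes were split, with 3 higher and 2 lower, then 8 and 3. Monocyte markers summed to 1503–4103 CPM in granulocytes and 4554–10234 in tumour monocytes. Scaling factors of granulocyte libraries lay between 0.573 and 0.828 and those of tumour monocytes between 0.91 and 1.11. The part of the cell makeup or of the scaling in these results was not tested.

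Macrophages were then set against microglia of tumour-bearing brains, the 2 macrophage populations of the brain. Xrcc5 was the clearest difference. Its lowest, median and highest values were 0.0791, 3.41 and 11.5 CPM in 10 unirradiated macrophage libraries and 7.88, 16.4 and 22.8 in 10 microglia libraries, so the ranges overlapped. In 14 irradiated libraries of each they were 0, 2.63 and 4.46 against 8.04, 16.9 and 30.7 CPM, with no overlap. The log2 fold change was -2.39 ± 0.49 (adjusted p = 0.00087) and -2.76 ± 0.36 (adjusted p = 7.01e-07). No other gene of the count table overlaps Xrcc5 in GENCODE.

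Of the 35 members, 3 were higher and 4 lower in macrophages without irradiation, or 20% against 29.9% of all genes. With irradiation 3 were higher and 16 lower, or 54.3% against 48.2% of all genes, and lower calls alone were 45.7% against 24.2%. All 7 called without irradiation were called the same way with it. Parp1 was higher in macrophages by 0.55 ± 0.14 (adjusted p = 0.00428), at 98.0, 127 and 178 CPM against 53.3, 91.4 and 121, and by 0.60 ± 0.11 (adjusted p = 9.68e-05) with irradiation. These ranges overlapped. Rbbp8 was higher by 1.02 ± 0.28 (adjusted p = 0.00887) and 0.88, and Rnf8, the ubiquitin ligase that marks chromatin beside breaks, by 0.62 and 0.44. The Rnf8 call was kept in 8 of 25 alternative analyses without irradiation, and lost without the doubtful libraries (0.61, adjusted p = 0.111), and was kept in 26 of 33 with it.

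Trp53bp1, which encodes 53BP1 and favours end joining, was lower in macrophages by -0.96 ± 0.29 (adjusted p = 0.0159) and -0.91 ± 0.12 (adjusted p = 1.75e-06). Its values were 3.16, 19.7 and 29.5 CPM in unirradiated macrophages and 24.6, 35.5 and 73.2 in microglia, which overlap. Chek2 was lower by -1.06 ± 0.28 (adjusted p = 0.00776) and -0.75, and Brca1 by -2.03 ± 0.70 (adjusted p = 0.0344; kept in 16 of 25 alternative analyses) and -1.63. The 12 genes called with irradiation and not without it were Mdc1, a scaffold at breaks (-0.40), and 11 of homologous recombination, the Fanconi pathway and the replication checkpoint: Exo1 (-1.97, adjusted p = 0.000118), Fanci (-2.20), Rad51ap1 (-1.85), Fancd2 (-1.76), Chek1 (-1.70), Brip1 (-1.55), Xrcc3 (-1.25), Fancb (-1.14), Xrcc2 (-0.89), Rad54l (-0.82) and Brca2 (-0.81). Whether these differences depend on irradiation was not tested.

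In the same comparison, mitosis genes were lower in macrophages for 3 of 23 without irradiation and 8 of 23 with it, and 0 were higher. Markers of dendritic cells summed to 294–2602 CPM in macrophages and 9.64–113 in microglia of tumour-bearing brains. Markers of epithelial or tumour cells summed to 6.69–82.2 CPM in macrophages and at most 12.6 in those microglia. The part of these cells in the results was not tested.

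Macrophages were also set against monocytes, the cells from which they derive. Palb2, which links BRCA1 to BRCA2, was higher in macrophages. Its lowest, median and highest values were 1.71, 14.4 and 25.2 CPM in unirradiated macrophages and 0, 3.74 and 6.74 in monocytes, and 7.77, 13.4 and 22.9 against 0.912, 4.12 and 14.2 with irradiation. The ranges overlapped in both sets, and the difference was 2.12 ± 0.53 (adjusted p = 0.0107) and 1.62 ± 0.29 (adjusted p = 0.000234). Rad51ap1, a gene of homologous recombination, was the other gene called without irradiation (3.16 ± 0.96, adjusted p = 0.0331), a call kept in 17 of 24 alternative analyses.

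That made 2 higher and 0 lower of 35 without irradiation, or 5.71% against 13.8% of all genes. With irradiation 11 were higher and 2 lower, or 37.1% against 21.9% of all genes. Higher calls alone were 31.4% of members against 12% of genes. They were Palb2, Rad54l (1.61 ± 0.31, adjusted p = 0.000489), Exo1 (2.42), Chek1 (2.17), Rad51ap1 (1.91), Bard1 (1.78), Fancd2 (1.68), Xrcc5 (1.55), Brca2 (1.27), Chek2 (0.93) and Atm (0.56). The replicate numbers pair these libraries, and with the number as a block Rad51ap1 (1.62, adjusted p = 0.113), Fancd2 (1.62, adjusted p = 0.0738) and Xrcc5 (1.48, adjusted p = 0.0911) lost their call. Bard1 kept its call with the block and in 14 of 33 alternative analyses, and lost it without the doubtful libraries. Parp1 was lower by -0.37 ± 0.11 (adjusted p = 0.0134) and Fanca by -1.14 ± 0.34 (adjusted p = 0.0167). Without replicate 2 of the 5x2 day 10 monocytes, 8 of the calls were left. Mitosis genes were higher for 12 of 23 without irradiation and 18 of 23 with it. Markers of dendritic cells summed to 294–2602 CPM in macrophages against 14.4–199 in tumour monocytes, and those of epithelial or tumour cells to 6.69–82.2 against at most 9.0. Their part in this result was not tested.

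For microglia, each tumour stage was set against the tumour-free cells, with the same 4 tumour-free libraries as the reference. Rad54l (ENSMUSG00000028702, chr4:116094264-116123690), which encodes a DNA motor protein of homologous recombination, was higher with tumour. Its values were 0.987, 6.66, 0 and 3.02 CPM in tumour-free libraries, 11.6, 9.54, 11.7, 9.76 and 12 with a small tumour and 11.6, 4.52, 16.7, 9.01 and 5.79 with a large one. The small-stage libraries all lay above the tumour-free ones, while 2 large-stage libraries lay below the highest tumour-free value. The log2 fold change was 1.87 ± 0.49 (adjusted p = 0.00957) and 1.62 ± 0.49 (adjusted p = 0.0135). Both calls were kept in 14 of 14 alternative analyses, with fold changes of 1.58–2.71 and 1.31–2.45.

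As a whole the members did not stand out here. With a small tumour 3 were higher and 3 lower of 35, or 17.1% against 15.4% of all genes (7.55% higher and 7.82% lower). With a large one 4 were higher and 9 lower, or 37.1% against 31.9% of all genes (11.7% higher and 20.2% lower). The median fold change of the members was 0.13 against -0.03 for all genes, and 0.02 against -0.26. With a small tumour Fanci, a Fanconi clamp subunit, had 0, 1.72, 0 and 0.259 CPM in tumour-free libraries and 3.25, 1.24, 4.36, 5.92 and 8.98 with tumour (3.05 ± 0.95, adjusted p = 0.0283). Only 1 tumour library lay within the tumour-free range, and the call was kept in 9 of 14 alternative analyses. Rbbp8 was at 10.1, 5.28, 8.22 and 10.3 CPM tumour-free and at 14, 9.61, 17.8, 16.9 and 20.1 with a small tumour (0.90 ± 0.29, adjusted p = 0.0316), a call kept in 5 of 14. With a large tumour it was at 21, 15.9, 17.6, 21.9 and 13, above every tumour-free library (1.04 ± 0.29, adjusted p = 0.00833), a call kept in 13 of 14. Xrcc6 (0.83, adjusted p = 0.0381) and Parp1 (0.67, adjusted p = 0.042) passed the threshold with a large tumour, and these calls were kept in only 5 and 3 of 14.

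The lower calls were Fanca, Lig4 and Rnf8 at the small stage and, at the large stage, these 3 with Atm, Atr, Brca2, Chek1, Fancd2 and Xrcc5. All but Rnf8 at the large stage (-0.89, adjusted p = 0.0326) were lost when 1 library of doubtful quality was left out. Replicate 3 of the tumour-free microglia, the library with the lowest total, had 140 CPM of Fanca, which encodes a Fanconi core subunit, against 2.10, 5.85 and 2.50 in the other 3. It had 71.3 CPM of Lig4 against 5.06, 8.84 and 9.29, and 41.8 of Brca1 against 0.247, 1.03 and 2.16. Without the doubtful libraries, 3 members were higher and 0 lower at the small stage and 3 and 0 at the large stage. Of all 17264 genes 703 were then higher and 656 lower at the small stage, and 1420 and 1535 at the large one. Rad54l (2.38, adjusted p = 0.00944) and Fanci (4.78, adjusted p = 0.0312) were kept at the small stage, and Rad54l (2.15, adjusted p = 0.00646) at the large one. Rbbp8 was lost at both stages, at 0.60 (adjusted p = 0.34) and 0.78 (adjusted p = 0.115), as were Xrcc6 (0.40, adjusted p = 0.139) and Parp1 (0.27, adjusted p = 0.5) at the large stage. The lower call of Rnf8 at the large stage was lost too (-0.33, adjusted p = 0.488). Without replicate 3 alone Fanci was at 2.87 (adjusted p = 0.0589). Leaving out replicate 3 alone left 2 higher calls at the small stage and 3 higher and 1 lower at the large one. Leaving out replicate 5 of the small stage left 2 calls too.

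The tumour-free libraries titled 5x2 gave a second reference. Although their radiotherapy field says none, Cdkn1a, the p53 target that encodes p21, was higher in them than in the other tumour-free microglia by 3.01 ± 0.40 (adjusted p = 0.00031) at day 3 and 3.57 (adjusted p = 1.22e-05) at day 5. Phlda3, a further p53 target, was higher by 5.21 (adjusted p = 0.000847) and 5.50 (adjusted p = 0.000495). Of the members, 0 were higher and 7 lower at day 3, or 20% against 1.91% of all genes. Those were Atm, Brca1, Brca2, Chek1, Fanca, Fancd2 and Brip1, and 0 were called once replicate 3 or all doubtful libraries were left out. At day 5 the count was 0 against 1.35% of all genes.

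Tumour and tumour-free microglia that share the 5x2 title at day 5 differed in 8 members, all higher with tumour, or 22.9% against 14.6% of all genes in either direction and 6.61% higher. The 2 groups did not overlap for any of the 8. These were picked by the test on the same libraries, so the lack of overlap adds no support. Its share over all genes was not counted. Rad54l was at 3.96, 2.25 and 1.81 CPM without tumour and 7.12, 17.4, 16 and 19.6 with it (2.52 ± 0.57, adjusted p = 0.00302). Brip1, the helicase partner of BRCA1, was at 0.63, 1.69 and 0.151 against 3.05, 16.8, 16.6 and 14 CPM (3.94 ± 0.95, adjusted p = 0.00539). Tumour replicate 1 was the lowest tumour library for both genes and also for Rad51ap1.

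Rbbp8 was at 6.84, 5.07 and 10.7 CPM without tumour against 18.8, 26.3, 16.4 and 18.3 (1.43 ± 0.33, adjusted p = 0.0034). Mre11a was higher by 0.79 ± 0.22 (adjusted p = 0.0141), at 26.1 ± 3.43 (n = 4) against 15.4 ± 3.94 CPM (n = 3). Parp1 was at 30.9, 61.3 and 57.4 against 66.1, 108, 94.5 and 90.4 CPM (0.88 ± 0.29, adjusted p = 0.0365), a call kept in 5 of 12 alternative analyses. The resection nuclease gene Exo1 (2.80, adjusted p = 0.021), Rad51ap1 (2.73, adjusted p = 0.0223) and Fanci (3.49, adjusted p = 0.0255) completed the 8. Rad54l and Rbbp8 kept their call in 12 of 12, Brip1 in 11, Mre11a, Exo1 and Rad51ap1 in 8 and Fanci in 7. The median fold change was 0.72 for the members and 0.00 for all genes, and 0 of the 5 end joining genes were called. Leaving out 1 library at a time left 2 to 8 calls, with 2 without replicate 3 and 3 without replicate 1 of the tumour-free group and 5 without replicate 2 of either group. Without the libraries of doubtful quality, which enter only through the shared fit, 14 members were called. In that fit 2356 of all 17264 genes were higher and 2867 lower, against 1305 and 1583 of 19754 in the main fit.

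At day 3 the same comparison called 3 members, all higher with tumour, or 8.57% against 9.28% of all genes. Brip1 was at 0.186, 0.0589 and 0.192 CPM without tumour and 2.60, 3.91, 3.72 and 8.63 with it (4.96 ± 1.07, adjusted p = 0.00227). Rad54l was at 1.30, 1.71 and 1.35 against 7.10, 6.21, 8.47 and 10.5 CPM (2.50 ± 0.57, adjusted p = 0.00437). Brca1 was at 0.372, 0.412 and 0.0641 against 3.03, 2.04, 5.11 and 6.75 CPM, with an adjusted p just under the threshold (3.88 ± 1.27, adjusted p = 0.05). Its call was kept in 3 of 12 alternative analyses and lost when any 1 of the 7 libraries was left out, while Brip1 and Rad54l kept theirs in 12 of 12. Rad54l was thus called higher with tumour in all 4 comparisons, of which the first 2 share their reference. Without the doubtful libraries, 1 of them among the tumour libraries here, 6 members were called. Of all 17264 genes 1365 were then higher and 1974 lower, against 825 and 1009 of 19754 in the main fit.

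**Figure D4:**
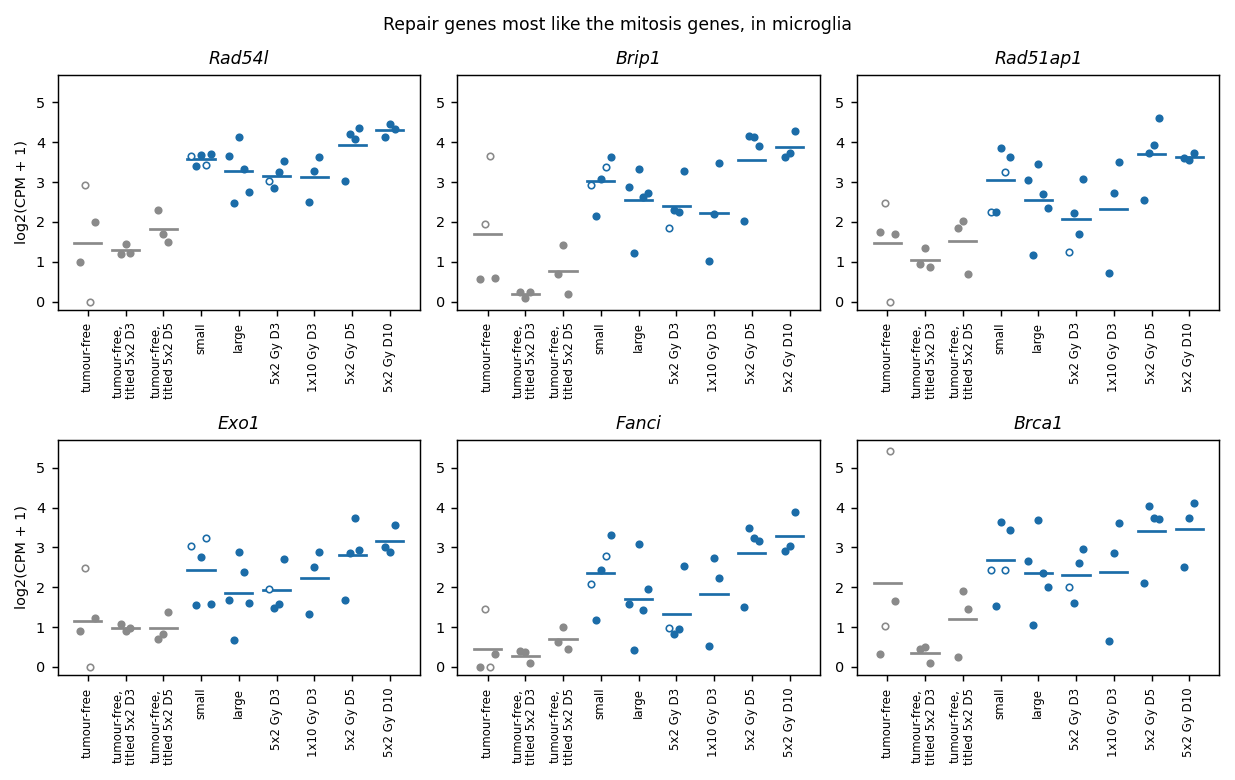
Log2(CPM + 1) (y axis) of Rad54l, Brip1, Rad51ap1, Exo1, Fanci and Brca1 in the 9 microglia groups (x axis), 1 panel each. Points are libraries, open points those of doubtful quality, and lines are means. For Rad54l the group means run from 1.45 CPM in tumour-free microglia titled 5x2 day 3 to 18.9 CPM in the 5x2 day 10 tumour group.

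In these 4 comparisons the mitosis and DNA replication genes that passed the test were all higher with tumour, while members passed in both directions in the first 2 comparisons. Without the doubtful libraries, members called in those 2 were 3 higher and 0 lower at each stage. Of 23 mitosis genes, 15 and 14 were higher with a small and a large tumour, 10 at day 3 and 22 at day 5, with 0 lower in each. Of 25 DNA replication genes, 10, 10, 6 and 12 were higher and 0 lower. Among the 53 other repair genes, Dna2, a nuclease-helicase of end resection, was higher by 2.35 (adjusted p = 6.36e-05) with a small tumour and by 2.78 (adjusted p = 7.03e-05) at day 5. Timeless, of the replication fork, was higher by 3.70 ± 0.53 (adjusted p = 1.39e-05) with a small tumour. Over the 28 group means, Pearson's r with the mean of the mitosis genes was 0.889 for Rad51ap1, 0.862 for Brip1, 0.861 for Rad54l, 0.855 for Brca1, 0.849 for Exo1 and 0.848 for Fanci.

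Those 6 had an r of 0.8 or more, 15 members lay between 0.5 and 0.8 and 14 below 0.5. Parp1 had 0.361, Mre11a 0.283, Fanca 0.049 and Rnf8 -0.272. These correlations describe the group means, which share populations and libraries, and the same number of members reached 0.8 without the doubtful libraries. Markers of astrocytes summed to 989–1657 CPM in tumour-free microglia and 527–2813 in those titled 5x2, against 123–453 with tumour, with no overlap. Microglia markers overlapped, at 5443–14873 CPM tumour-free and 5375–12376 with tumour. The part of other brain cells and of cell division in these results was not tested.

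Each of 4 radiotherapy groups was set against the mean of the 2 unirradiated stages, in each of 4 populations, so the 4 comparisons within a population share their reference. Across the 16 comparisons and 548 tests of members, edgeR's quasi-likelihood test called 0. At an unadjusted p under 0.05 there were 14, or 2.55%, and DESeq2 called 0 with 22 at an unadjusted p under 0.05. For all genes in edgeR, that bound was passed by 357 of 19754 in microglia at 5x2 day 3, the lowest share. The highest was 1475 of 14567 in tumour monocytes at 5x2 day 5. With DESeq2 it ran from 518 of 19754 in microglia at 5x2 day 3 to 1968 of 15874 in macrophages after 1x10. Among all genes the share called by edgeR was 0.0607%, 0.101%, 0.0354% and 0.00506% in microglia at 5x2 day 3, 1x10 day 3, 5x2 day 5 and 5x2 day 10. It was 0.0063% in macrophages after 1x10 and 0% in the other 11 comparisons, so edgeR called few genes of any kind. Calls by DESeq2 ran from 2 higher and 0 lower of 14230 genes in granulocytes at 5x2 day 3 upwards. The most were 49 and 139 of 14567 in tumour monocytes at 5x2 day 5.

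The precision differed by population. The 95% interval of the fold change lay within 2-fold either way for 80 of 140 tests in microglia, 52 of 140 in macrophages, 29 of 132 in tumour monocytes and 0 of 136 in granulocytes. In microglia at 5x2 day 3, Atm, the kinase gene at the head of the break response, had an interval of -0.64 to 0.53. For Trp53 the interval was -0.52 to 0.41, for Parp1 -0.49 to 0.40 and for Mre11a -0.38 to 0.30. Intervals were wider for replication-linked members, for example -2.12 to 0.33 for Rad51ap1. In granulocytes no 2-fold change could be bounded for any member.

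Some p53 targets passed the test in the same libraries. In microglia 5 of 23 were higher at 5x2 day 3, 7 after 1x10, 3 at 5x2 day 5 and 1 at day 10, with 0 lower. Phlda3 was higher by 3.98 ± 0.45 (adjusted p = 1.13e-05) at 5x2 day 3 and by 5.4 ± 0.48 (adjusted p = 3.25e-08) after 1x10. Cdkn1a was higher by 1.69 (adjusted p = 0.00293) and 1.72 (adjusted p = 0.00396). In macrophages 1 target of 22 tested was called, Phlda3 after 1x10 (3.96 ± 0.58, adjusted p = 0.00821), and 0 in tumour monocytes or granulocytes. Of the other repair genes, 0 were called in any of the 16.

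**Figure D5:**
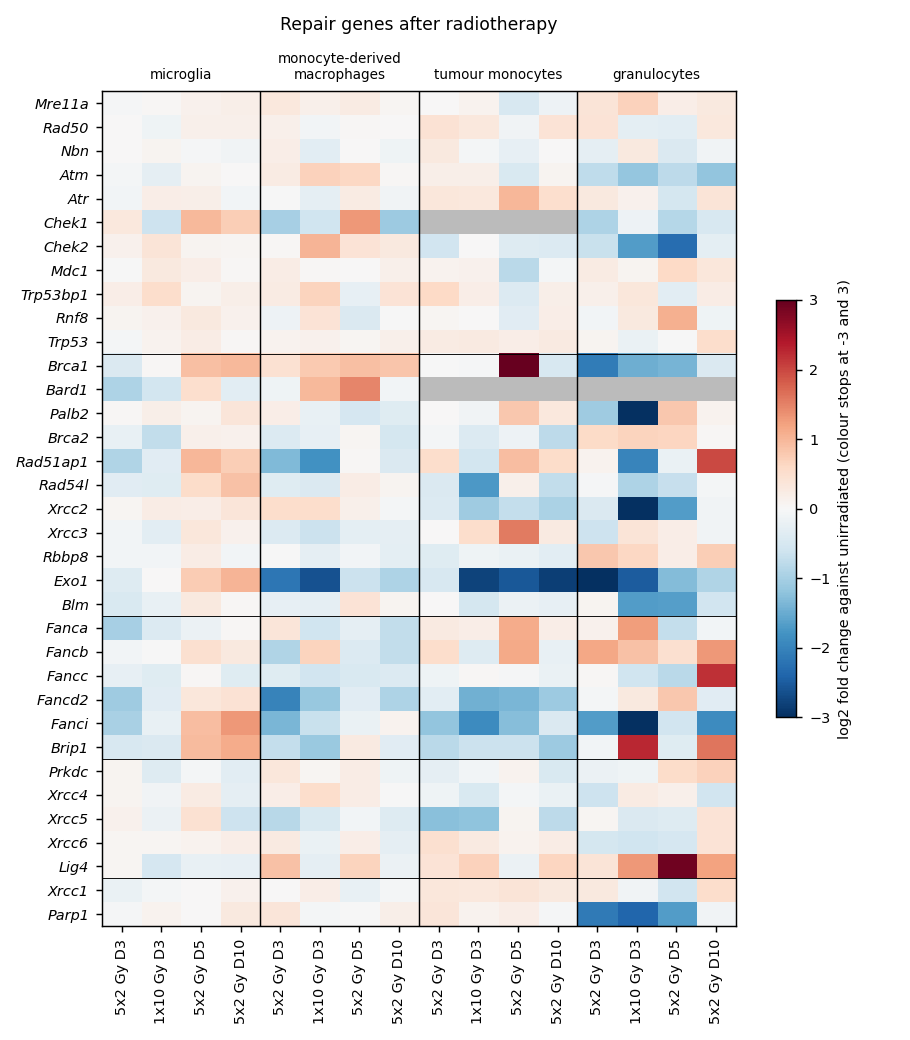
Log2 fold change of irradiated over unirradiated libraries for the 35 repair genes (rows) in 16 comparisons (columns, grouped by population). Colour runs from lower to higher and stops at 3 either way, and grey cells were not tested. No cell passed the adjusted threshold of 0.05.

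The smallest adjusted p among members was 0.254, for Brca1 in tumour monocytes at 5x2 day 5 (3.70 ± 1.14). Its values there were 0.0892, 0.151, 21.9 and 0.309 CPM, so 1 of the 4 libraries held the difference. In microglia, the mitosis genes had a median change of -1.84 at 5x2 day 3, with 20 of 23 at an unadjusted p under 0.05 and 0 called, and 0.99 at day 10. Rad51ap1 was at 1.38, 3.66, 2.26 and 7.44 CPM at 5x2 day 3, at 4.87, 12.2, 14.3 and 23.4 at day 5 and at 11.2, 10.7 and 12.2 at day 10. Every day 10 library lay above every day 3 library. Between those days 0 of 35 members and 0% of all genes were called, with Fanci at 2.29 ± 0.93 (adjusted p = 0.917). An unadjusted p under 0.05 was found for 3 members and for 849 of all 19754 genes.

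Days 3 and 10 differed in 0 members of macrophages too (0% of all genes). The difference between the macrophage and microglia responses at 5x2 day 3 was tested directly and called 0 of 35 (0% of all genes). Fanca (1.41) had an unadjusted p under 0.05, a bound passed by 763 of all 17247 genes. Between large and small tumours, 0 of 137 tests of members were called over the 4 populations, and 1 had an unadjusted p under 0.05, Xrcc5 in macrophages (2.18). DESeq2 called 0 members between the stages, with 7 at an unadjusted p under 0.05. Among all genes the share called by edgeR was 0% in 3 populations and 0.0141% in granulocytes. DESeq2 called 19 genes higher and 676 lower of 14230 in granulocytes, and 0 and 21 of 19754 in microglia. It called 6 and 3 of 15874 in macrophages and 0 and 8 of 14567 in tumour monocytes.

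Tumour monocytes were finally set against blood monocytes of tumour-free mice. Parp1 was at 33.6, 33.7, 37.9 and 113 CPM in the 4 blood libraries and at 165 ± 44.1 (n = 9) in tumour monocytes (1.40 ± 0.32, adjusted p = 0.00638), with a tumour minimum of 106 CPM below the highest blood library. Of 35 members, 1 was higher and 15 lower in tumour monocytes, or 45.7% against 26.3% of all genes, and the groups overlapped for each of the 16. The lower calls and that of Parp1 went with the 3 blood libraries of doubtful quality. Parp1 was at 33.6, 33.7 and 37.9 CPM in those and 113 in the other. Without those 3 its log2 fold change was 0.56. Brca2 was at 13.4, 58.2 and 13.9 CPM in those and 1.42 in the other, and Rad54l at 10.6, 40.9 and 10.7 against 0.631. Without the doubtful libraries 1 blood library was left and 0 members were called, without replicate 2 there were 3 and without replicate 3 there were 9. Markers of erythroid and stem cells summed to 945–6042 CPM and those of T and NK cells to 137–3562 in blood monocytes, against at most 95 and 45.3 in tumour monocytes, and their part in this result was not tested.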

How the data were processed

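Per the labels' protocols, myeloid cells were sorted from brain or blood, RNA was extracted with Trizol LS, and Illumina libraries were made from total RNA. Tools named in the submitters' processing notes are TopHat2 2.0.14, HTSeq, FastQC and DESeq2 1.18.1, with the build GRCm38. The authors deposited whole-number read counts of 49585 genes in 108 libraries, whose annotation and strand setting were not given in the sources used here. GENCODE M21 matched 49326 of the IDs (used for coordinates, overlaps and exon lengths).

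Samples were grouped by title, cell type, stage and radiotherapy fields. Counts were filtered with filterByExpr (minimum count 10, minimum total 15), given TMM factors and tested by edgeR 4.0.16 with its quasi-likelihood F-test (R 4.3.3, limma 3.58.1), with 1 mean per group, no covariate and Benjamini-Hochberg adjustment over all genes tested, at a threshold of 0.05. Fits within a population used all its libraries, and fits between populations only the groups compared. CPM use TMM factors over all 108 libraries, and log2 CPM a prior count of 2. The fits were tested on simulated data. Alternatives were RLE scaling, no filter, DESeq2 1.42.0, the replicate number as a block, each library left out, another reference stage and leaving out doubtful libraries. Of 36 comparisons, 31 were planned and 5 added after seeing the data, the 2 between microglia sharing a 5x2 title and the 3 between irradiated populations. Among irradiated macrophages and monocytes the replicate numbers paired the libraries, with 14 of 14 pairs correlating over 0.1 (lowest 0.192, median 0.411). Irradiated macrophages and microglia had 13 of 14 (lowest 0.0155, median 0.367). No 2 libraries were identical.

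The 35 members and the gene lists were chosen with earlier results of these data known. Every member may be named, and of each other list up to 4 genes with the smallest adjusted p per comparison, besides Mki67 and Cdkn1a. Promoters are from RefSeq (GRCm38.p6), where 7 members had no entry used.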

Additional observations from a re-analysis of the deposited data

Results flagged for a closer look

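In 18 groups of 4 or 5 libraries, the mean log2 CPM of the 35 repair genes was searched for a library far from the rest of its group by Dixon's test, which chance alone flags in about 1 of 20 groups. It marked 2 libraries, both of tumour monocytes. Replicate 2 of the small stage was the lowest of its 4, at 2.0. Replicate 3 of the large stage was the lowest of its 5, at 1.46. Neither was of doubtful quality by total count, genes detected or abundant genes at 0.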

How the results depend on the processing

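Counts of called members moved with the processing mainly where tumour-free or blood libraries were the reference, and the cause was not tested. For microglia with a small tumour against tumour-free ones, 6 calls became 2 without the filter, 2 with the replicate block, 3 without doubtful libraries and 10 with DESeq2. Calls over all genes there, higher and lower, were 1491 and 1544 of 19754 in the main fit. They were 1030 and 1125 of 41448 without the filter and 1211 and 768 of 19754 with the block. Without doubtful libraries they were 703 and 656 of 17264, and with DESeq2 1584 and 2953 of 19754. With a large tumour, 13 became 5 without the filter, 6 with the block and 3 without doubtful libraries. Over all genes, 2315 higher and 3994 lower became 1987 and 4375, 1809 and 2069, and 1420 and 1535 in the same order. For tumour-free microglia titled 5x2 against the others, 7 calls at day 3 became 0 with the block, 0 without doubtful libraries and 12 with DESeq2. At day 5, 0 became 2 with RLE scaling, 1 without the filter and 12 with DESeq2. All genes called went from 157 higher and 109 lower to 114 and 148, 235 and 216, and 551 and 1495. Between microglia sharing the 5x2 title, 3 calls at day 3 became 6 without doubtful libraries and 6 with DESeq2, and 8 at day 5 became 14 without doubtful libraries. For all genes, 825 higher and 1009 lower at day 3 became 1365 and 1974, and 1262 and 1512. At day 5, 1305 and 1583 became 2356 and 2867. Macrophages against monocytes without irradiation had 2 calls, 1 with the block and 5 with DESeq2. Of all 14939 genes 1079 were higher and 984 lower, then 984 and 1222, and 1744 and 1140. Granulocytes against monocytes without irradiation had 13 calls and 8 with the block, and tumour against blood monocytes 16, with 5 with the block and 0 without doubtful libraries. Monocytes at 5x2 day 5 had 1 call without the filter.

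Leaving out 1 library at a time gave 2–7 calls for the small and 4–14 for the large tumour, 0–10 and 0–8 for the titled 5x2 days 3 and 5, 2–2 and 2–8 for the shared title at days 3 and 5, 0–1 for granulocyte stage (1 without replicate 2 of the small stage), 5–8 and 18–21 for macrophages against microglia without and with irradiation, 1–6 and 8–17 for macrophages against monocytes, 8–13 and 15–20 for granulocytes against monocytes and 3–20 for blood. Counts moved by over 1.5 times without tumour-free microglia replicate 3 (2 and 4 calls for the small and large tumour, 0 for titled day 3) or small-tumour replicate 5 (2), for titled day 3 without its replicate 1, 2 or 3 (2, 0 and 0), for titled day 5 without tumour-free replicate 1, 2 or 4 (8, 8 and 5), and for the shared title at day 5 without tumour-free replicate 1, 2 or 3 (3, 5 and 2) or tumour replicate 2 (5). They did so too for macrophages against monocytes, to 1 without small-stage macrophage replicate 2, large-stage macrophage replicate 5 or small-stage monocyte replicate 1, 2 or 4, to 4 without large-stage macrophage replicate 1, to 6 without large-stage monocyte replicate 3 and, with irradiation, to 8 without 5x2 day 10 monocyte replicate 2. Granulocytes against monocytes had 8 without large-stage monocyte replicate 4, and blood monocytes 3 and 9 without replicates 2 and 3. All 16 irradiated against unirradiated comparisons stayed at 0.

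Directions turned for 16 single values. Without doubtful libraries and without tumour-free replicate 3, Fanca was 1.23 and 1.01 (log2) with a small tumour, and with a large one Fanca was 1.05 and 0.43, Chek1 0.49 and 0.34 and Fancd2 1.13 and 0.26. Leaving out other libraries took these 4 as low as -2.79, -3.38, -2.59 and -2.39. Against blood monocytes without doubtful libraries, Trp53bp1 was 0.54, Brca1 5.39, Brca2 0.96, Rad51ap1 0.37, Rad54l 2.44, Exo1 1.2, Fancd2 6.81 and Prkdc 0.36. Otherwise 2534 single values kept their call and 390 lost it in the same direction.

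RLE scaling moved the median over all genes from -0.03 to -0.21 with a small and from -0.26 to -0.51 with a large tumour, and the share of higher calls from 49.1% to 33.9% and from 36.7% to 23.4%. For the titled 5x2 days 3 and 5 the share went from 43.1% to 20.5% and from 59.0% to 43.5%, and for blood from 40.2% to 28.1%. Among granulocytes it moved the median by up to -0.28, with large against small tumours going from 0 higher and 2 lower calls over all genes to 14 and 1639.

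The replicate number paired irradiated macrophages and monocytes, where the block gave 16 calls against 13. The labels state no link for these libraries or any others. Irradiated macrophages and microglia had 13 of 14 pairs over 0.1. Of their libraries 28 of 28 correlated most with their own number, as for irradiated macrophages and monocytes. Irradiated granulocytes and monocytes had 12 of 14 pairs and 24 of 28 libraries. Without irradiation it was 8 of 20 libraries for macrophages and microglia and 11 of 18 for granulocytes and monocytes. The p-values given for these comparisons used no pairing. The block changed no other count by over 1.5 times beyond those above. Low counts limit the replication-linked genes in granulocytes and monocytes.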
